A study of Mus musculus with 622 samples.

Results

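Npy-positive insulin cells were 15 single cells of the mouse pancreatic islet that carried neuropeptide Y RNA beside their insulin RNA. They were chosen in 3 steps from 622 cells. A cell had to show at least 1000 genes at 1 RPKM or more, where RPKM scales the reads on a gene to its length and to the depth of the cell. Ins1 and Ins2 together had to make up at least 99% of the RPKM of Ins1, Ins2, Gcg, Sst and Ppy, and the macrophage gene Tyrobp had to lie below 100 RPKM. These steps left 593, 360 and finally 352 insulin cells. Of the 352, 15 had Npy at 1 RPKM or more and are called Npy-positive, and 336 had Npy at 0 and are called Npy-negative. The remaining cell, with Npy at 0.813 RPKM, was in neither group.

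All cells were islet cells of wild-type C57BL/6 mice, captured one at a time on a Fluidigm C1 microfluidic chip, with 1 RNA sequencing library per cell. The labels name no treatment, age, animal or chip, so the cells count as 1 sample. No p-value or standard error is therefore given, differences are described by their size, and cells of one side are not replicates of a condition. The insulin cells carried beta cell genes on both sides: 8 to 11 of 12 beta cell markers stood at 1 RPKM or more in each Npy-positive cell, against 7 to 12 in the Npy-negative cells. The 12 markers include Ins1 and Ins2, which chose the cells, so these counts are in part set by the rule. The transcription factor Mafa, the marker that is best known for mature beta cells, was below 1 RPKM in all 15 Npy-positive cells and in 331 of the 336 others, with a highest value of 6.72 RPKM.

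Neuropeptide Y is a secreted peptide of the pancreatic polypeptide fold, known above all from neurons of the brain and from sympathetic nerve endings. Its precursor is cut by prohormone convertases, trimmed by carboxypeptidase E and amidated by the enzyme encoded by Pam, the same steps that other islet peptides pass through, and the secreted peptide acts through G protein coupled Y receptors that restrain insulin release. In rodent islets the gene is known as active in immature beta cells of the fetus and newborn and as low in mature ones, which is why maturity and cell cycle genes are described at length.

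The measured transcript is short. Npy lies on the forward strand of chromosome 6 (GRCm38, 49822710 to 49829507) and has 4 exons, of which 3 carry the coding sequence of 97 codons. The coding sequence from GENCODE M21 is shown because reads on this small gene, with a length of 547 bases behind its RPKM values, decide which cells are called positive. The start codon and the stop codon are in capitals.
Npy: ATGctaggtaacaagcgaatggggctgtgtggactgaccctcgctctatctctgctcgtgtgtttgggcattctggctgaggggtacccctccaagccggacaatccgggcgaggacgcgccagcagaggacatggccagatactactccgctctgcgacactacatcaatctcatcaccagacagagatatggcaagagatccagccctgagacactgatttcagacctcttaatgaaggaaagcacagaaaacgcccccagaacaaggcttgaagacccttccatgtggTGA

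The 15 cells differed from each other in Npy by more than 3 orders of magnitude. In rising order, cells 580, 63, 61 and 32 held 1.22, 1.33, 2.52 and 3.72 RPKM, each of which was exactly 1 read. Cells 62, 69, 110 and 229 held 7.05, 7.12, 7.66 and 14.1 RPKM, or 2, 3, 7 and 8 reads. The remaining 7 cells stood apart from these in read support. Cells 207, 557, 321 and 460 held 46.4, 194, 266 and 361 RPKM, from 48, 146, 57 and 174 reads. Cells 125, 572 and 68 held 844, 1302 and 5015 RPKM, from 341, 887 and 2294 reads, so the top cell held more Npy than the other 14 together. The threshold of 1 RPKM passed between cell 580 at 1.22 RPKM and the unused cell 499 at 0.813 RPKM, and each of these 2 cells held 1 read. These values chose the cells and are a description only.

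**Figure D1:**
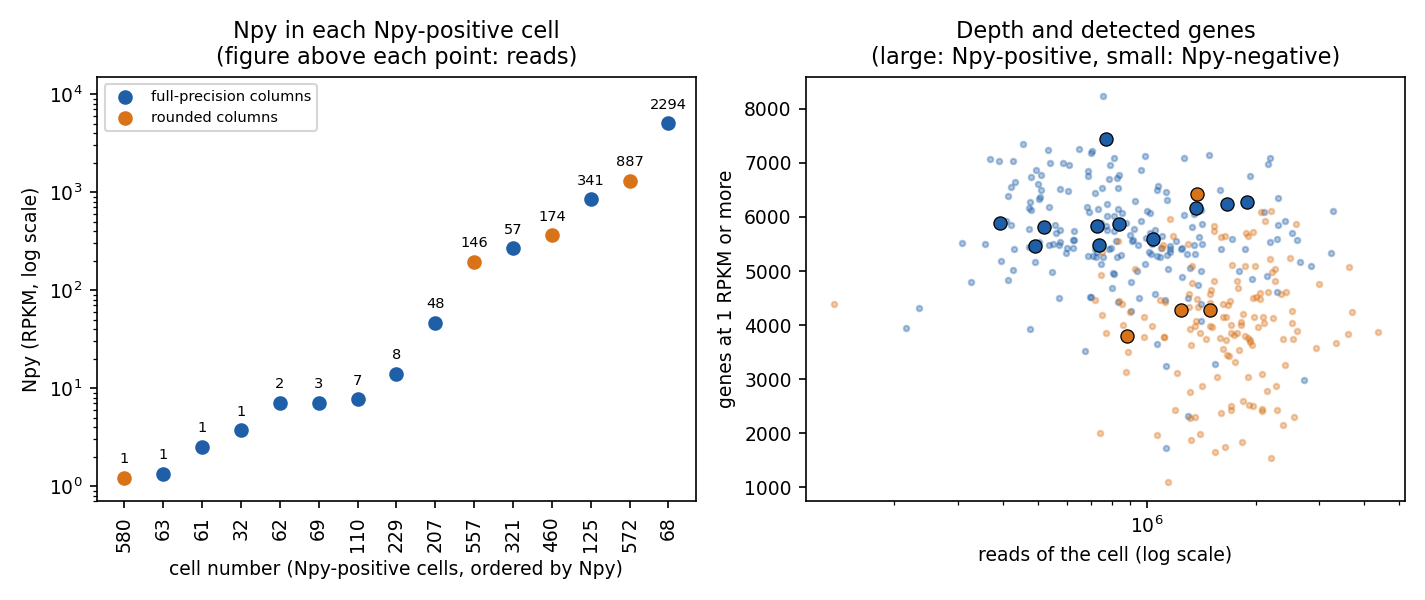
Left, Npy in RPKM (log axis) in each of the 15 Npy-positive cells, with the number of reads above each point and color for the column set of the table. Right, genes at 1 RPKM or more against the reads of each cell (log axis), with large points for Npy-positive and small points for Npy-negative cells. Npy ran from 1.22 RPKM on 1 read to 5015 RPKM on 2294 reads, and the Npy-positive cells lay inside the cloud of Npy-negative cells.

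Npy-positive cells were 4.26% of the 352 insulin cells, with an exact Clopper-Pearson 95% interval of 2.40% to 6.93% that covers counting error only. From 100 RPKM upward, 6 cells or 1.70% remained. Npy was also found outside the insulin cells, in 8 of the 241 other cells with enough genes (3.32%). The 6 most strongly positive of these, at 47.1 to 977 RPKM, were among 151 cells with insulin from 10% to below 99% of hormone RNA beside a second hormone. Among cells led by another hormone, Npy reached 1 RPKM in 1 of 32 glucagon cells, at 1.72 RPKM on 1 read. It was at 0 in 12 somatostatin cells and in 10 pancreatic polypeptide cells, where counts of 0 allow shares of up to 25.0% and 30.0%. A single Tyrobp-high cell of 16 held 9.30 RPKM. The 4 insulin cells with 1 Npy read were thus at the level seen in a glucagon cell, while none of the cells led by another hormone and none of the Tyrobp-high cells reached 46.4 RPKM, the lowest of the upper 7.

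Depth and detection moved with the groups. Npy-positive cells had 391454 to 1892452 reads (median 880192) and 3795 to 7440 genes at 1 RPKM (median 5834). Npy-negative cells had 135830 to 4351290 reads (median 1159894) and 1099 to 8233 genes (median 5165). At a common 250000 reads the medians were 5942 and 5324 genes. The share of RPKM from mitochondrially encoded genes was alike, with medians of 12.3% and 11.2%. The number format of the table parts the columns into a set at full precision and a set rounded to 4 decimals. Npy-positive cells were 11 of 201 insulin cells in the full-precision set (5.47%) and 4 of 151 in the rounded set (2.65%). Within the full-precision set the medians were 5871 and 5583 genes from 769812 and 830809 reads, and within the rounded set 4279 and 4045 genes, so the gap in detected genes was smaller within either set than over all cells. Whether the sets mark separate runs is not given in the sources used here. Values within each set therefore stand beside many of the results that differ between them. Pooled values given alone need not hold in both sets.

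Comparisons used the log2 of the ratio of mean RPKM plus 1, positive over negative, for the 7416 genes with a mean of at least 5 RPKM on either side. Of these, 779 (10.5%) were at least 2-fold higher and 737 (9.94%) at least 2-fold lower in the mean of the Npy-positive cells. The median of all genes was 0.11. No gene compared kept the 2 sides apart: for 0 of 7416 did the lowest Npy-positive cell exceed the highest Npy-negative cell, or the reverse. In means of log2(RPKM + 1), which weigh single high cells less, 766 genes (10.3%) were 2-fold higher, 36 (0.485%) were 2-fold lower, and the median was 0.35. The near absence of lower genes on that scale went together with the larger number of detected genes in the Npy-positive cells, and the part of detection was not tested. With RPKM rescaled to leave out Ins1, Ins2 and mitochondrial genes, the split turned to 1209 higher and 2108 lower of 10902 genes, with a median of -0.07. Against this background the gene groups below are read.

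The genes that make, cut and receive the peptide differed little apart from Pyy. Prohormone convertase 2 (Pcsk2) had a mean of 455 RPKM in the Npy-positive and 459 in the Npy-negative cells, a log2 ratio of -0.01. Prohormone convertase 1 (Pcsk1) ranged from 12.9 to 674 RPKM around a median of 93.7 in the Npy-positive cells, beside a median of 94.4 in the others, with a ratio of 0.30. Carboxypeptidase E (Cpe) stood at a mean of 1423 against 1277 RPKM (0.16) and the amidating enzyme Pam at 95.7 against 106 RPKM (-0.14). All 15 Npy-positive cells had these 4 enzymes at 1 RPKM or more. Dpp4, whose product clips neuropeptide Y and so shifts its receptor preference, was at 1 RPKM in 11 of 15 and in 196 of 336 cells, with a ratio of 0.39.

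No receptor for the peptide was detected on either side. Npy2r, Npy4r and Npy5r were at 0 in all 351 cells, and Npy1r reached no more than 0.527 RPKM in a Npy-negative cell. In 15 cells, a count of 0 allows a share of up to 20.0%, and in 336 cells up to 0.893%. Peptide YY (Pyy; chromosome 11, 102106676 to 102107832), the closest relative of Npy, ranged from 0 to 74.3 RPKM in the Npy-positive cells, with a median of 11.4, and from 0 to 31492 RPKM in the others, with a median of 9.68. Its ratio of means was -2.86 but -1.52 without the highest Npy-negative cell, while the difference of mean log2 was 0.22 in the opposite direction. Of the Npy-positive cells, 10 of 15 lay above the Npy-negative median of Pyy.

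Taken over all 15 Npy-positive cells, beta cell identity and maturity genes stood close to the level of the other insulin cells. Of 35 listed genes, 32 passed the level filter. The median ratio was 0.10, beside 0.11 for all genes. Ratios were 2-fold higher for 2 genes and 2-fold lower for 1, against 10.5% and 9.94% over all genes. Both higher genes rested on 1 cell, described below with the other such genes. The median was -0.01 within the full-precision set and 0.09 within the rounded set, beside 0.08 and -0.28 for all genes. In the 6 cells with Npy from 100 RPKM it was 0.44, beside -0.14 for all genes.

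The maturity peptide urocortin 3 (Ucn3; chromosome 13, 3940688 to 3945349) was present in all 15 cells, from 1.43 RPKM in cell 207 over a median of 557 to 1201 RPKM in cell 68, the cell with the most Npy. Npy-negative cells ran from 0.879 to 2651 RPKM with a median of 355. Apart from cell 207, no Npy-positive cell lay below 184 RPKM, and 11 of 15 were above the Npy-negative median. The ratio of means was 0.15, or 514 against 462 RPKM. The glucose transporter of the mature rodent beta cell, Slc2a2, ranged from 0.617 to 512 RPKM (median 115) against 0 to 1711 RPKM (median 91.9), a ratio of 0.08. The 3 cells with the most Npy, cells 125, 572 and 68, also had the 3 highest Slc2a2 values of the 15, at 450, 512 and 405 RPKM. That order was noticed for a single gene after the values were seen, and a relation to the level of Npy was not tested.

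Other products of mature beta cells were alike on both sides. G6pc2, a glucose-6-phosphatase subunit of beta cells, had means of 1279 and 1045 RPKM (0.29). The zinc transporter of insulin granules Slc30a8 had 429 and 470 RPKM (-0.13), and Iapp, the islet amyloid peptide, had 65360 and 61695 RPKM (0.08). The prolactin receptor Prlr was at 58.8 and 51.4 RPKM (0.19). Each of these 4 genes was at 1 RPKM in all 15 cells, and the ranges of the groups overlapped throughout. The calcium sensor Syt4, which increases during beta cell maturation, had a ratio of 0.88 that was 0.24 without cell 207.

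Transcription factors of the beta cell were detected in part of the cells on either side. Pdx1 was at 1 RPKM in 11 of 15 Npy-positive cells and in 200 of 336 others, with means of 11.0 and 11.4 RPKM (-0.04). Nkx6-1 was detected in 12 of 15 and 233 of 336 cells, with means of 6.37 and 11.7 RPKM (-0.79) but medians of 4.97 and 4.04 RPKM. Neurod1, a pan-endocrine factor, leaned to the other side, with medians of 39.6 and 8.81 RPKM and a ratio of 0.79. It was 1.04 within full-precision columns and -2.32 within rounded ones. Insm1, another pan-endocrine factor, was at 7.46 RPKM or more in all 15 cells and above the Npy-negative median in 12 of them (0.55). Foxa2, a factor of early endoderm and beta cells, was the 1 gene with a 2-fold lower mean, at 5.27 against 15.1 RPKM (-1.36), detected in 6 of 15 and 196 of 336 cells.

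**Figure D2:**
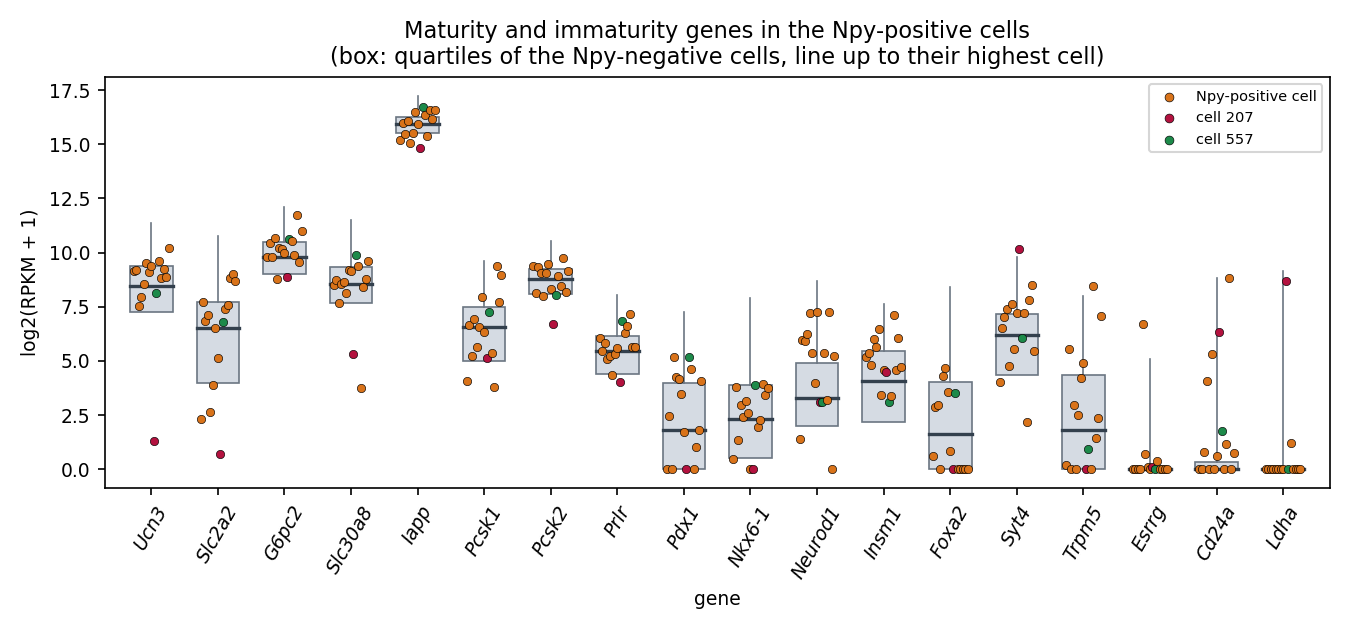
Maturity genes, 2 genes of immature cells (Cd24a, Ldha at the right) and processing enzymes in log2(RPKM + 1), with 1 point for each Npy-positive cell, boxes for the quartiles of the 336 Npy-negative cells and a line up to their highest cell. Ucn3, Slc2a2, G6pc2 and Slc30a8 lie over the boxes, except that cell 207 sits far below them at 1.43 RPKM of Ucn3 and 0.617 RPKM of Slc2a2.

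Genes of immature beta cells and progenitors were mostly not detected. Of 24 listed genes, 2 passed the level filter, 1 with a 2-fold higher and 1 with a 2-fold lower mean (10.5% and 9.94% over all genes). The median of these 2 genes was 1.07 within full-precision columns and -1.79 within rounded ones. Cd24a, a surface protein of immature cells, was at 1 RPKM in 6 of 15 (40.0%, exact interval 16.3% to 67.7%) and in 39 of 336 cells (11.6%, 8.38% to 15.5%). Both intervals cover counting error only, and the difference between the sides was not tested. The Cd24a ratio of 2.70 became 0.84 without cell 125, which held 446 RPKM. The next values, 80.3, 38.6 and 15.7 RPKM, were in cells 207, 69 and 32. The filament gene Vim was the lower one, with a ratio of -1.15, and was in cell 207 alone, at 55.6 RPKM, against 15 of 336 others. Of 15 genes that mature beta cells keep low, only lactate dehydrogenase A (Ldha) passed the filter, and its ratio of 2.73 became -1.98 without cell 207.

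The higher means of DNA replication genes rested on single Npy-positive cells, above all on cell 557. Of 24 S-phase genes, 11 passed the filter with a median ratio of 0.90. A 2-fold higher mean was seen for 5 of them (Ccne1, Ccne2, Mcm2, Mcm5 and Mcm6) and a 2-fold lower mean for 1 (Rpa2, a single-strand DNA binding protein, -2.21), beside 10.5% and 9.94% over all genes. The filter asks for a mean of at least 5 RPKM on either side, so a gene can pass through a single high Npy-positive cell. The median and the count of higher genes are therefore not support for a difference between the sides. Cell 557, with 194 RPKM of Npy, held 20 of the 24 genes at 1 RPKM or more. The other 14 Npy-positive cells held 1 to 6 of them. In cell 557 the helicase subunit gene Mcm5 stood at 134 RPKM, Mcm4 at 103, Mcm6 at 87.0 and Mcm3 at 67.8 RPKM, the thymidylate synthase gene Tyms at 82.1 RPKM and cyclin E1 (Ccne1) at 84.4 RPKM. Of the 336 Npy-negative cells, 2, 0, 3, 2, 2 and 1 were higher for these genes, and 2 held at least 20 S-phase genes.

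Without its highest cell, no S-phase gene kept a 2-fold higher mean. Mcm5 went from 1.97 to -1.35, Ccne1 from 1.83 to -0.83, Ccne2 from 1.57 to -0.10 and Mcm6 from 1.39 to -0.05, each by leaving out cell 557. Mcm2 went from 2.11 to -0.29 by leaving out cell 110, where it stood at 137 RPKM. The median over the S-phase, G2 and mitosis lists together was 0.83, and 0.01 without cell 557. It was -0.10 in the full-precision set and 2.53 in the rounded set, which holds cell 557. With no level filter it was -0.38, beside -0.01 for all genes. The proportion of cells with 10 or more S-phase genes was 1 of 15 (6.67%, exact interval 0.169% to 31.9%) against 7 of 336 (2.08%, 0.842% to 4.24%). These intervals cover counting error only, and the difference between the sides was not tested. Pcna, a clamp of the replication fork that many resting cells also express, was at 1 RPKM in 11 of 15 and 199 of 336 cells, with a ratio of 0.35.

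Of 30 genes of G2 and mitosis, 26 were below 1 RPKM in every Npy-positive cell. Mki67, Top2a and Cdk1, the usual markers of dividing cells, were below 1 RPKM in all 15 cells and at or above it in 7, 7 and 4 of the 336 Npy-negative cells. Ccna2, Aurka and Prc1 were below 1 RPKM in all 15 and detected in 26, 16 and 14 of the others. At least 3 genes of the G2 and mitosis list were detected in 0 of 15 against 14 of 336 cells (4.17%). A count of 0 in 15 allows a share of up to 20.0%, so a share as in the Npy-negative cells was not detectable at this number of cells. Cell 557, with its S-phase genes, had Top2a, Mki67 and Cdk1 below 1 RPKM. Hmgb2, a chromatin protein of the list that is also present in resting cells, was the 1 gene that passed the filter (0.77).

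Of 22 genes that set entry into the cycle, 16 passed the filter with a median of -0.08. A 2-fold lower mean was seen for 3 and a 2-fold higher mean for 1, beside 9.94% and 10.5% over all genes. Cyclin D2 (Ccnd2), the main D cyclin of rodent beta cells, was at 74.0 RPKM or more in all 15 cells, with means of 194 and 183 RPKM (0.08). Cyclin D1 (Ccnd1) had means of 24.3 and 25.3 RPKM (-0.05). Cyclin D3 (Ccnd3, 0.509 against 6.37 RPKM, -2.29), Trp53 (3.29 against 10.3 RPKM, -1.40) and the inhibitor Cdkn2d (3.51 against 10.4 RPKM, -1.34) had 2-fold lower means. The inhibitor Cdkn1a, a target of p53, was the 1 gene with a 2-fold higher mean (1.76), which became 0.06 without cell 62 at 468 RPKM. It was at 1 RPKM in the 6 cells with the least Npy, cells 580, 63, 61, 32, 62 and 69, at 2.31 to 468 RPKM, and below 1 RPKM in the 9 cells with more Npy. In the Npy-negative cells it was detected in 123 of 336. The division of Cdkn1a by the order of Npy was noticed after the values were seen. The 6 cells with Cdkn1a held at most 3 Npy reads each, and a relation to the level of Npy was not tested. Of these 6, cells 61, 62, 63 and 69 lie close in cell number to each other and to cell 68, where Cdkn1a was at 0. The part of cell number was not tested.

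**Figure D3:**
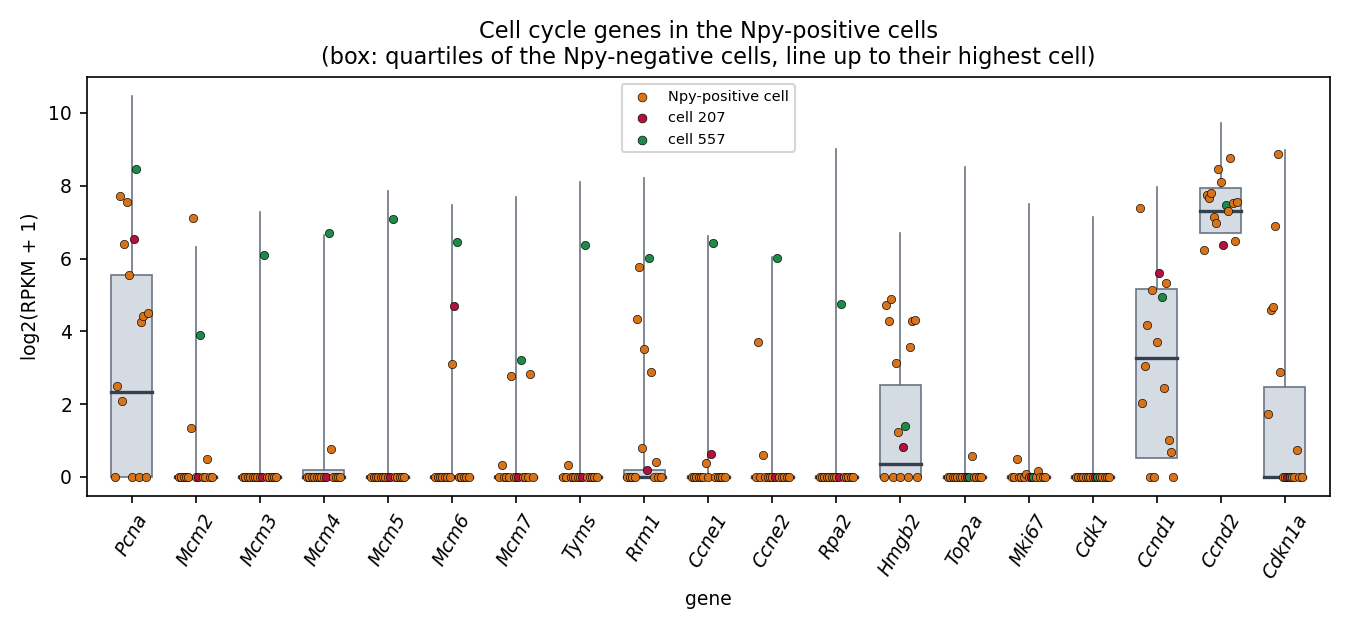
Cell cycle genes in log2(RPKM + 1), with 1 point for each Npy-positive cell, boxes for the quartiles of the 336 Npy-negative cells and a line up to their highest cell. The replication genes from Mcm3 to Rpa2 are near 0 in nearly all Npy-positive cells apart from cell 557, and Mki67, Top2a and Cdk1 are below 1 RPKM in all 15.

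Over all other genes, most of the higher means had at least 50% of their sum in 1 cell. This held for 449 of the 779 genes with a 2-fold higher mean (57.6%), by the summed RPKM of the 15. For 689 of the 779 the ratio was below 2-fold once the gene's highest Npy-positive cell was left out. Leaving out the highest cell on that side alone can only lower a ratio, so part of this drop is built in. The 90 genes left are 1.21% of all genes compared. Both column sets gave a 2-fold higher mean for 84 of the 779 and a 2-fold lower mean for 436 of the 737. The 2 sets make up the pooled means that chose these genes, so such counts are not independent support. In the rounded set alone, 1265 of 6732 genes were 2-fold higher and 2302 lower. In the full-precision set alone, the counts were 877 and 979 of 7739. Just 91 of the 779 were detected in 1 Npy-positive cell alone.

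The genes named here as higher had a mean of at least 20 RPKM and were detected in at least 50% of the Npy-positive cells. Slc35d3, a nucleotide-sugar transporter family member (chromosome 10, 19847917 to 19856634), ranged from 0 to 350 RPKM with a median of 4.32 and was at 1 RPKM in 11 of 15 cells, against 90 of 336 others with a median of 0. Its ratio was 3.02, and 1.83 without cell 460. It was 1.71 within full-precision columns and 4.55 within rounded ones. Cnrip1, which encodes a partner of the cannabinoid receptor CB1, was detected in 8 of 15 and 63 of 336 cells (2.43). That ratio was -1.57 in the 4 rounded-set cells. Tubb3, the neuronal beta-tubulin, was detected in 8 of 15 and 115 of 336 cells, at medians of 24.3 and 0 RPKM (2.26). It was led by cell 207 at 575 RPKM and cell 32 at 353 RPKM, and its ratio was 1.62 without cell 207.

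S100a10, a partner of annexin A2 at the cell membrane, was the most widely detected of them, in 12 of 15 against 167 of 336 cells, with medians of 31.8 and 0.858 RPKM and a ratio of 1.66. It kept 1.07 without cell 460, 1.20 in the full-precision set and 2.53 in the rounded set. The other 6 genes, Babam1 (1.99), Aimp2 (1.92), Tiparp (1.86), Mrpl47 (1.82), Rbm7 (1.78) and Parl (1.68), act in DNA repair, in the tRNA synthetase complex, in ADP-ribosylation, in mitochondrial translation, in RNA decay and in the inner mitochondrial membrane. They were detected in 8 to 10 of 15 cells, where the choice of genes itself demanded at least 50%. Among Npy-negative cells, Rbm7 was detected in 47.6%, Parl in 43.2%, Tiparp in 39.0%, Aimp2 in 27.7% and Mrpl47 in 24.7%. Mrpl47 and Parl turned to -3.76 and -1.22 in the rounded set, and Babam1, Rbm7 and Parl were at 0.55, 0.96 and 0.76 without their highest cell. In the full-precision set, which holds 11 of the 15 cells, Babam1, Aimp2 and Rbm7 were below 2-fold, at 0.63, 0.70 and 0.997, beside 3.71, 3.57 and 3.10 in the rounded set. Babam1 was detected about as often on both sides, in 53.3% and 53.9% of cells. Aimp2 overlaps Eif2ak1 in the annotation, and how the authors' counting split such reads is not given in the sources used here.

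The genes with the lowest ratios after Pyy differed in how many Npy-positive cells were low. Mettl9, a histidine methyltransferase, was at 0 in 8 of 15 cells and reached 18.0 RPKM, against a median of 4.03 and a top of 227 RPKM in the others (-2.56). The carbonic anhydrase gene Car15 had a ratio of -2.26, the fatty acid oxidation subunit gene Hadhb -2.12 and the actin-binding thymosin gene Tmsb15b2 -2.06. Tmsb15b2 was at 1 RPKM in 8 of 15 against 262 of 336 cells. Dio1, a deiodinase that activates thyroid hormone, had medians of 0.874 and 4.96 RPKM (-1.98). For Mettl9, Tmsb15b2 and Dio1, only 2 or 3 of the 15 Npy-positive cells lay above the Npy-negative median. For Tmem214 (-1.86) and Kin (-1.82), 8 and 9 of 15 lay above it, while single Npy-negative cells reached 906 and 484 RPKM. Pts (-1.72) and Chchd1 (-1.67) complete the list. For Pts 4, and for Car15, Hadhb and Chchd1 6 of 15 cells each, lay above the Npy-negative median. All 10 ratios were negative in both column sets, which make up the pooled ratios that chose these genes. As differences of mean log2, 9 of the 10 were also negative.

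**Figure D4:**
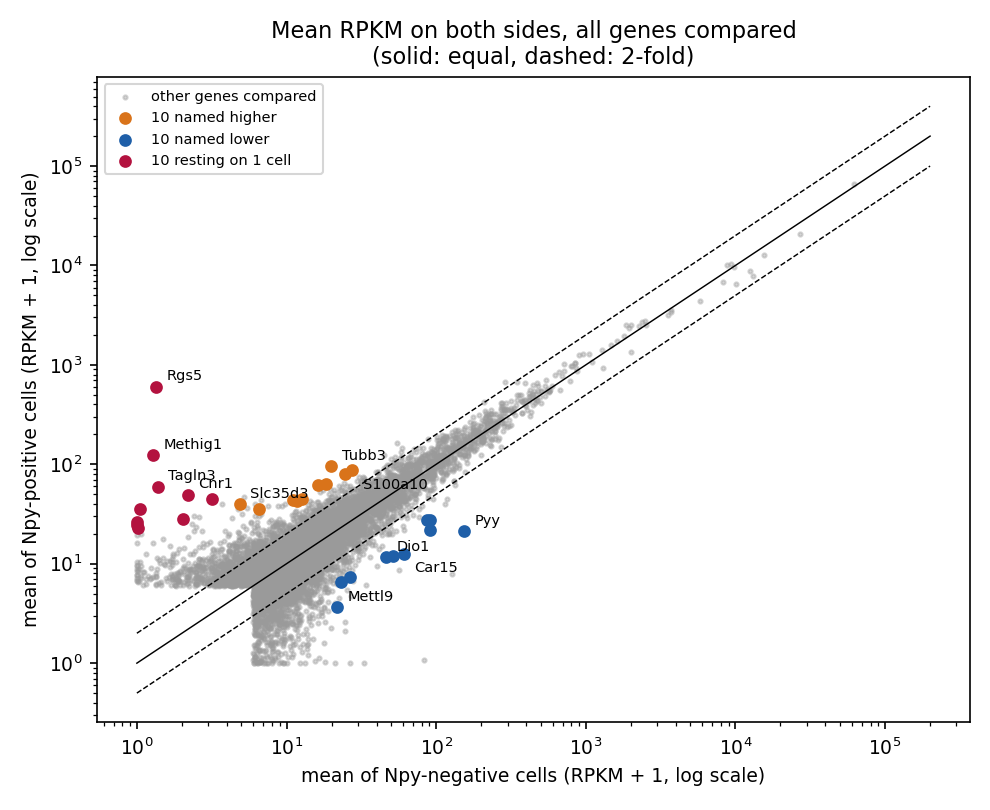
Mean RPKM + 1 of the 15 Npy-positive against the 336 Npy-negative cells (log axes) for the genes compared, with the 10 genes named as higher, the 10 named as lower and 10 that rest on 1 cell in color. Rgs5 stands far above the diagonal, and its mean of 604 RPKM comes from cell 207 alone.

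Of 778 genes at 1 RPKM or more in all 15 cells, 7 had a 2-fold higher and 1 a 2-fold lower mean. Both are smaller shares than the 10.5% and 9.94% over all genes compared. They are named here after their values were seen, and the demand that a gene be detected in all 15 cells itself favors higher values on that side. Mpv17, an inner mitochondrial membrane channel, ranged from 1.18 to 280 RPKM (median 123), against 0 to 616 RPKM (median 12.5) in the others, where it was detected in 244 of 336 cells. Its ratio was 1.48, 1.35 without its highest cell, 1.37 within full-precision columns and 1.71 within rounded ones. The mitochondrial thioredoxin Txn2 had medians of 127 and 15.3 RPKM (1.31, and 1.04 without its highest cell), and 13 of 15 cells lay above the Npy-negative median for either gene. Pgrmc1, a heme-binding membrane protein, had medians of 98.5 and 14.2 RPKM (1.16, and 0.98 without its highest cell). Pnisr (1.26), the ubiquitin ligase scaffold Cul1 (1.11), the ribosomal protein gene Rpl9 (1.02, but -0.19 within rounded columns) and Rpl10a-ps4 (1.01), a pseudogene whose reads may belong to Rpl10a, were the others. Without their highest cell these 4 genes were below 2-fold, at 0.95, 0.83, 0.77 and 0.79. Within full-precision columns Pgrmc1 was at 0.61, Pnisr at 0.40 and Cul1 at 0.82. The selenoprotein gene Selenom was lower, at medians of 34.3 and 58.9 RPKM (-1.09).

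The largest ratios of all belonged to single cells. Among the 225 genes with a 2-fold higher mean of at least 20 RPKM, 76 (33.8%) had at least 50% of their sum in 1 cell. Cells 207 and 580 accounted for 16 of these each and cell 460 for 14. The regulator of G protein signaling Rgs5 (chromosome 1, 169655501 to 169695813) was at 9058 RPKM in cell 207 and at 0 in the other 14. Its ratio was 8.82 with that cell and -0.42 without it. Also led by cell 207 were Methig1 (6.59, and -0.27 without it), Tagln3 (5.43 and -0.47), Higd1c (5.09 and -0.07), Car2 (4.72 and 0.00), the cannabinoid receptor gene Cnr1 (4.51 and 0.13) and the amino acid transporter gene Slc6a14 (3.81 and -1.02). Methig1 and Higd1c overlap in the annotation. Of the 10, the gene with Entrez ID 102634025 rested on cell 68 (4.61, and 0.34 without it), 4933407O12Rik on cell 580 (4.50 and -0.03) and 6330403K07Rik on cell 62 (3.83 and 1.58).

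Cell 207 was unlike the other 14 across many genes. Its Npy was 46.4 RPKM from 48 reads. Above all 336 Npy-negative cells stood its values of Stmn2 (143 RPKM), a microtubule regulator of neurons, Th (406 RPKM), which makes the catecholamine precursor, and Sox11 (25.1 RPKM), a factor of young neurons. The vesicle protein gene Syt4, at 1128 RPKM, and Cnr1, at 711 RPKM, were above all of them as well. Ucn3 at 1.43 RPKM was below 334 of the 336, Slc2a2 at 0.617 RPKM below 309, and chromogranin A (Chga) at 110 RPKM below 332. Pdx1 and Nkx6-1 were at 0. Insulin was still abundant, at 91075 RPKM of Ins2 and 9527 RPKM of Ins1, which 319 and 313 Npy-negative cells exceeded. Of 8 neuronal markers, 7 were at 1 RPKM or more, against 1 to 4 in the other Npy-positive cells and 0 to 5 in the Npy-negative cells. Dbh, which makes noradrenaline, was at 0. Whether 1 or more cells shared this capture site was not tested.

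Other cells led single genes. Cell 69 held 9862 RPKM of the lipocalin Lcn2, and the ratio of 1.22 was -4.50 without it. Cell 62 held Cdkn1a, the stress and pluripotency factor Klf4 (269 RPKM) and the estrogen-related receptor Esrrg (104 RPKM). Esrrg, a driver of beta cell maturation, had a ratio of 2.10 and of -0.79 without cell 62. The channel gene Trpm5 went from 1.05 to -0.10 without cell 460 at 356 RPKM. Th was at 1 RPKM in 1 of 15 Npy-positive cells, cell 207, and in 74 of 336 others, so its ratio of 1.33 became -3.48 without that cell. The glutamate decarboxylase gene Gad1 was detected in 7 of 15 and 172 of 336 cells.

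**Figure D5:**
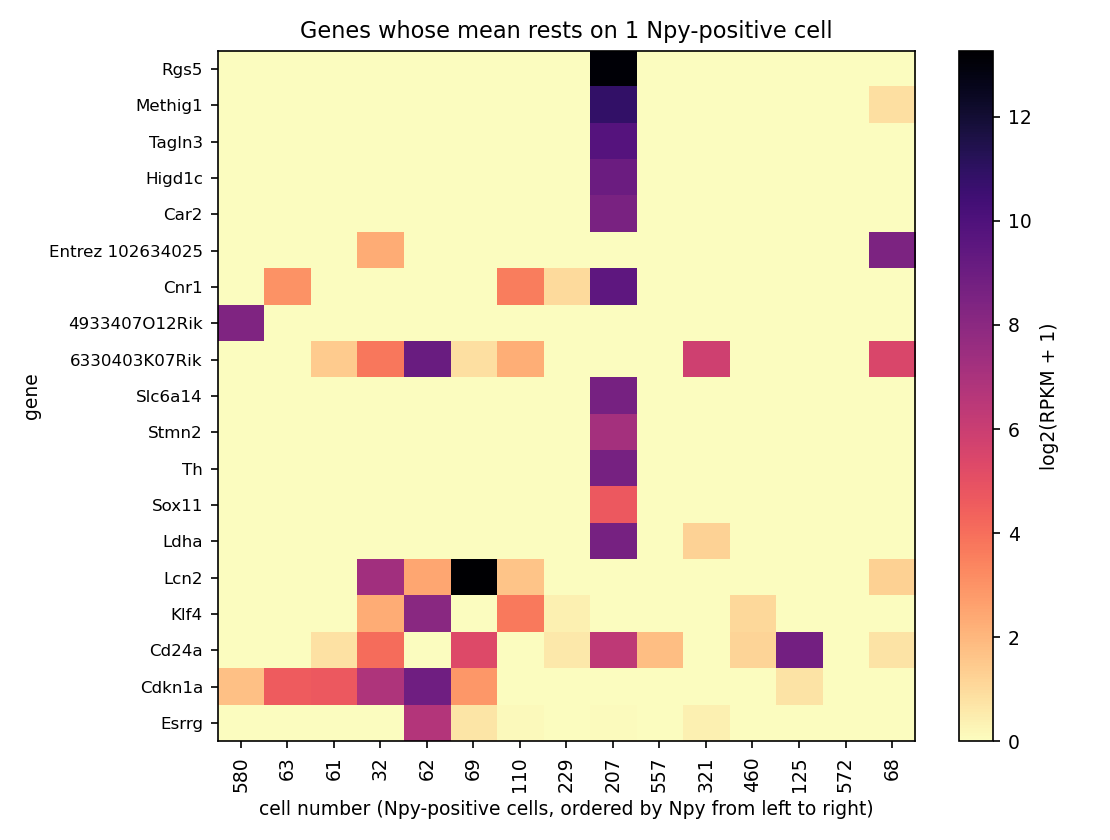
Genes whose mean rests on 1 Npy-positive cell, in log2(RPKM + 1) by color, with the 15 cells ordered by Npy from left to right. The dark column at cell 207 holds Rgs5, Methig1, Tagln3, Higd1c, Car2, Cnr1, Slc6a14, Stmn2, Th, Sox11 and Ldha, while Lcn2 is dark in cell 69 and Klf4, Cdkn1a and Esrrg in cell 62.

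Secretory and metabolic groups showed no group-wide difference in level. Of 19 genes of the secretory granule and exocytosis, 0 passed 2-fold either way (20.4% of all genes did), with a median of 0.09 and ratios from -0.87 to 0.44. Of 11 genes of glucose sensing and the KATP channel, 0 were higher and 1 was lower, pyruvate carboxylase (Pcx, -1.36), with a median of 0.08. That median was 0.04 within full-precision columns and -0.41 within rounded ones, beside 0.08 and -0.28 for all genes. The KATP pore Kcnj11 had a ratio of 0.82 and its regulatory subunit Abcc8 0.08. The mitochondrial pyruvate carrier subunit Mpc1 was the highest of that list at 0.83, with medians of 183 and 38.2 RPKM. Glycolysis had a median of 0.03 over 12 genes, with Ldha the only one past 2-fold. The 23 genes for ER chaperones and the unfolded protein response had a median of -0.20, with none past 2-fold. The disulfide isomerase Pdia3 was the lowest at -0.85 and the ER membrane protein Wfs1 the highest at 0.91.

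In the stress and interferon lists, 1 or 2 genes per list passed 2-fold in each direction, beside 10.5% higher and 9.94% lower over all genes. At 9 to 20 genes per list, these counts do not set the lists apart from all genes. The integrated stress response had a median of 0.20 over 17 genes, with the translation repressor Eif4ebp1 2-fold higher (1.05, and -0.12 without its highest cell) and the serine synthesis enzyme Phgdh 2-fold lower (-2.04). Within full-precision and rounded columns that median was 0.09 and -0.40. Immediate early and heat shock genes had a median of 0.36 over 20, with 16 above and 4 below 0. Egr1 had medians of 362 and 224 RPKM and was above the Npy-negative median in 11 of 15 cells (0.39), and Fos had medians of 358 and 336 RPKM (0.21). Only Klf4 passed 2-fold upward, on cell 62, and Dnajb1 (-1.29) and Hspa1a (-2.40) passed it downward. MHC class I and interferon genes had a median of -0.17 over 9, with the peptide transporter Tap2 higher (1.75, and 0.12 without cell 32) and the immunoproteasome subunit Psmb9 lower (-2.15). The median of these 9 genes was 0.03 within full-precision columns and -1.38 within rounded ones.

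Other secreted peptides were mostly not detected beside Npy. Of 29 listed, 6 passed the filter, among them Iapp and Ucn3. Of 18 that were below 1 RPKM in every Npy-positive cell, 7 were seen in Npy-negative cells. Among the Npy-positive cells, Calca, which encodes calcitonin gene-related peptide, was in cell 68 alone at 103 RPKM. Cartpt, another neuropeptide of young beta cells, was in cell 69 alone at 95.0 RPKM. Calca and Cartpt were above 0 in 16 and 21 of the 336 Npy-negative cells. Osteopontin (Spp1) was lower, with means of 6.96 and 127 RPKM (-4.00) but medians of 0.484 and 0.299 RPKM. Npy-negative cells reached 6346 RPKM of Spp1.

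RNA of the other islet hormones was found at low levels on both sides. Gcg was at 1 RPKM in 15 of 15 Npy-positive cells with a median of 37.3 RPKM and in 319 of 336 Npy-negative cells with a median of 43.7 RPKM. Sst was in 14 of 15 and 313 of 336 cells, at medians of 150 and 51.4 RPKM, and Ppy in 12 of 15 and 304 of 336, at medians of 21.3 and 11.8 RPKM. The ghrelin gene Ghrl was in 1 of 15 cells, at 5.00 RPKM, and in 3 of 336. These hormones, apart from Ghrl, were part of the choice of insulin cells.

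Most markers of exocrine and non-endocrine cells were at or near 0 in the Npy-positive cells. None of 11 acinar markers was at 1 RPKM in any of the 15, and the immune, glial and endothelial lists reached at most 1, 2 and 1 markers per cell, with summed levels of 0 to 30.9, 0 to 104 and 0 to 59.8 RPKM. In the Npy-negative cells these sums ran from 0 to 1068, 0 to 2241 and 0 to 903 RPKM. The ductal list was the exception, with Krt7, a keratin of simple epithelia, at 1 RPKM in 14 of 15 and 307 of 336 cells and a summed level of 0.685 to 233 RPKM against 0 to 6453 RPKM. Of 9 markers of stellate cells and pericytes, Rgs5 in cell 207 was the only one above 1.23 RPKM. The neuronal list summed to 46.2 to 1330 RPKM (median 358) in the Npy-positive and to 0.903 to 1068 RPKM (median 289) in the Npy-negative cells, with the top sum in cell 207. Stmn2 was at 1 RPKM in no other of the 351 cells.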

How the data were processed

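The authors deposited 1 table of RPKM values with 44448 genes by Entrez ID and 1 column per cell. CASAVA 1.8.2, FastQC and GRCm38 (mm10) are named per the submitters' processing notes, and cDNA was made with the SMARTer kit per the labels' protocols. Which aligner, counter and gene models served is not given in the sources used here. Symbols came from RefSeq (GRCm38.p6), which matched 39725 IDs. Whole reads were recovered from the steps of the values, with 100.0% (full-precision columns) and 99.94% (rounded columns) whole within 0.05. The recovered reads served for depth, for the Npy reads of each cell and for values at a common depth. They also set the alternative group chosen by Npy reads in the closing section. No 2 cells had identical values. No doublet caller was run.

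Means were compared as log2 of RPKM plus a pseudocount of 1, with pandas 2.3.3 and numpy 2.4.6 on Python 3.11.15, and scripts were tested on simulated data. Detected means at 1 RPKM or more. Named were the 10 highest and 10 lowest ratios with a mean of at least 20 RPKM on the higher side and detection in 50% or more of that side's cells, the 10 largest that rest on 1 cell, up to 4 members each way per list, all detected genes of the Npy family, and a fixed set of maturity and cell cycle genes. The members and lists were chosen with earlier results of these data known. The closing section gives the alternatives tried. Some listed genes are not reported here.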

Additional observations from a re-analysis of the deposited data

How the results depend on the processing

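The median of the maturity list kept within -0.15 and 0.44 under all 14 alternatives and within 0.01 and 0.19 when each Npy-positive cell was left out in turn. The median of all genes moved as well. With Npy from 100 RPKM the list stood at 0.44 beside -0.14 for all genes, and with Npy from 10 reads at 0.30 beside -0.05. In the rounded columns it was 0.09 beside -0.28, and with a stricter insulin share -0.15 beside -0.02. Counts of genes past 2-fold moved with the settings. Higher genes numbered 779, and 109 with a pseudocount of 10 RPKM, 1172 with no filter, 1265 in the rounded columns alone and 1209 with rescaled RPKM. Lower genes numbered 737, and 73, 1848, 2302 and 2108 under the same settings, 36 by mean log2, 1816 with Npy from 100 RPKM, 1419 with a stricter insulin share and 1519 with Npy from 10 recovered reads, an alternative added after seeing the data together with a mean weighted to the column sets. Leaving out 1 cell gave 778 to 878 higher and 724 to 850 lower genes. The median of the cell cycle lists was 0.83, and -0.38 with no filter, -0.10 and 2.53 in the full-precision and rounded columns, 1.94 with Npy from 100 RPKM, 1.73 from 10 reads, 1.59 with the stricter insulin share and 0.10 with rescaled RPKM, with 0.015 to 0.90 when a cell was left out (lowest without cell 557). The share of Npy-positive cells was 1.70% with Npy from 100 RPKM.

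Of 30 named genes, ratios turned in sign as follows. With Npy from 100 RPKM, which leaves out cell 207, they were -0.42 for Rgs5, -0.17 for Methig1, -0.47 for Tagln3, -0.069 for Higd1c, -0.0023 for Car2, -1.12 for Cnr1, -1.02 for Slc6a14, -1.67 for Cnrip1, -1.18 for Rbm7 and -0.027 for 4933407O12Rik. From 10 reads they were -0.39 for Rbm7 and -0.027 for 4933407O12Rik. In the rounded columns they were -0.011 for Rgs5, -0.0069 for Methig1, -0.017 for Tagln3, -0.30 for Cnr1, -0.84 for 6330403K07Rik, -0.024 for Entrez ID 102634025, -1.57 for Cnrip1, -3.76 for Mrpl47 and -1.22 for Parl, and in the full-precision columns -0.047 for 4933407O12Rik. With the stricter insulin share they were -1.12 for 6330403K07Rik and -0.17 for Parl, and by mean log2 0.22 for Pyy. Leaving out 1 cell gave -0.42 to 8.92 for Rgs5, -0.27 to 6.69 for Methig1, -0.47 to 5.53 for Tagln3, -0.069 to 5.18 for Higd1c, -0.0023 to 4.81 for Car2, -0.027 to 4.60 for 4933407O12Rik and -1.02 to 3.91 for Slc6a14. The fewer cells in these settings are by construction, and other causes were not tested. No paired analysis was possible because all cells form 1 group. With 15 cells, a gene absent from all of them may still be present in up to 20.0% of such cells.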

Other observations

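The numbers of the Npy-positive cells were not spread evenly over the labels. Among the cells numbered 61 to 69, 7 were insulin cells by the rule, and 5 of these, cells 61, 62, 63, 68 and 69, were Npy-positive. Cell 68 held 2294 Npy reads, and cells 61, 62, 63 and 69 held 1, 2, 1 and 3 reads. The labels do not say what the number of a cell stands for, and this grouping was noticed after the values were seen. Cell 68 is the only one of the 5 among the 7 Npy-positive cells with at least 10 reads, for which counts and reversed ratios are given above.

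At 250000 reads per cell, the chance of drawing at least 1 Npy read from a Npy-positive cell ran from 0.168 in cell 580 to 1, and these chances summed to 11.2 of 15. The Y-linked translation factor Eif2s3y was at 1 RPKM in 14 of 15 Npy-positive and 213 of 336 Npy-negative cells (log2 ratio 1.21), and Ddx3y in 14 and 225 (1.08). Within full-precision columns the ratios of Eif2s3y and Ddx3y were 0.98 and 0.51, and within rounded columns 1.53 and 2.23. Xist was at most 0.0497 RPKM in all 15 and at 1 RPKM in 3 of the 336.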
